A study of Mus musculus with 6 samples.

Results

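The replication-dependent histone genes of the mouse are described here in adhesion tissue and heart after talc injury. They were taken as every row whose gene name begins with Hist1h, Hist2h, Hist3h or Hist4h, which gave 68 of the 23420 rows of each deposited table. The rule uses names only and no measured value. By class these were 6 linker histone H1 genes, 18 H2A, 19 H2B, 12 H3 and 13 H4 genes. The H2B genes include Hist3h2bb-ps, a pseudogene by the ending of its name. By cluster there were 54 Hist1 genes, 10 Hist2 genes, 3 Hist3 genes and 1 Hist4 gene. C57BL/6 male mice of 8 weeks received 300 µL of talc suspended at 2.5 mg/g in saline through the diaphragm into the pericardial cavity. The 6 libraries are adhesion tissue at days 1, 3 and 7 and whole heart at days 0, 3 and 7, with 1 library per condition. The first adhesion library is day 1 by title and stage and day 0 by its source label, and day 1 is used here. Pooling of animals, and any injection of the day 0 heart, are not given in the sources used.

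Core histones H2A, H2B, H3 and H4 form the protein spool on which DNA is wound, and the linker histone H1 binds where DNA enters and leaves it. Cells make most of this protein while they copy their DNA, from clustered intronless genes whose messengers end in a conserved stem-loop and carry no poly(A) tail. The stem-loop binding protein Slbp holds that hairpin, and the messenger is degraded when DNA synthesis stops. Replacement histones such as H3f3a and H3f3b are made from ordinary polyadenylated messengers throughout the cell cycle. The libraries were total RNA depleted of ribosomal RNA, a preparation that keeps messengers without poly(A), so both kinds were readable.

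The hairpin that names this kind of messenger was looked for in the spliced GENCODE M21 transcripts on GRCm38, which is the mm10 build of the deposited rows. The pattern was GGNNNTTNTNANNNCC on the sense strand, with arms of 6 complementary bases. It was present in 46 of the 68 histone genes and in 79 of 55341 annotated genes (0.143%). A gene without it only lacks these letters in its annotated transcripts, and whether those reach as far as a hairpin was not checked. The following 5 stem-loops show the forms found, with the 16 bases of the hairpin in capitals.
Hist1h1c (H1), chr13:23739512-23739527, plus strand: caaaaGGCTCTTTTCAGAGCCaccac
Hist3h2a (H2A), chr11:58955172-58955187, plus strand: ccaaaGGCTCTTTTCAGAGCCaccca
Hist1h3c (H3), chr13:23745047-23745062, minus strand: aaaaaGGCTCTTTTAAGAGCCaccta
Hist1h4d (H4), chr13:23581950-23581965, plus strand: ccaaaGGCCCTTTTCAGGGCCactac
Hist1h4b (H4), chr13:23757366-23757381, plus strand: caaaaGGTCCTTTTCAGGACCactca
The arms separated the classes. All 12 H4 hairpins found began with GGCCC or GGTCC, and the hairpins of the 4 H1, 11 H2A, 10 H2B and 9 H3 genes found all began with GGCTC. The most frequent form, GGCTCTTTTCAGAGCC, stood in 26 genes of the H1, H2A, H2B and H3 classes, and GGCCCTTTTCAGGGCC stood in 7 H4 genes.

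Promoters, taken from RefSeq on GRCm38.p6 as 250 bases before to 50 after the start, were matched for 61 of the 68 genes. The octamer ATTTGCAT, read on both strands, stood in 7 of 16 H2B promoters, 7 of 17 H2A promoters and in none of the 6 H1, 10 H3 and 12 H4 promoters. It stood in 1.74% of all 32851 promoters. An H2A and an H2B gene often lie head to head, so a match can be counted for both. Hist1h2ba, a testis gene among the 7 H2B genes with the octamer, had no read. The following stretches show the octamer in capitals in these H2B genes, except Hist1h2be.
Hist1h2bb, chr13:23746628-23746667, plus strand: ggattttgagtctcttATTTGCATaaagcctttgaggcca
Hist1h2bg, chr13:23571325-23571364, plus strand: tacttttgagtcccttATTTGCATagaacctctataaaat
Hist1h2bk, chr13:22035775-22035814, plus strand: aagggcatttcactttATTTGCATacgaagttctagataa
Hist1h2bm, chr13:21722003-21722042, plus strand: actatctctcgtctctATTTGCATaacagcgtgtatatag
Hist2h2bb, chr3:96269636-96269675, plus strand: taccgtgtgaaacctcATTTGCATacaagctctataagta
Hist1h2ba, chr13:23934297-23934336, minus strand: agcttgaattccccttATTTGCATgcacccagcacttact
The letters CCAAT on either strand stood in all 6 H1, 17 H2A, 16 H2B and 10 H3 promoters matched but in 3 of 12 H4 promoters, against 37.4% of all promoters. The letters TATAAA on the sense strand stood in 30 of the 61, against 8.32% of all.

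The libraries held 1615922 to 1844565 reads in genes, so that 1 read was 0.542 to 0.619 CPM, the count scaled to a library of 1000000 reads. The ribosomal precursor Rn45s took 6.66% to 11.4% of the reads in adhesion tissue and 3.14% to 4.02% in heart. The 6 cardiomyocyte markers, all detected in every library, summed to 199 to 4800 CPM in adhesion tissue and 52745 to 62706 CPM in heart, in keeping with the tissue labels. With 1 library per condition no test across animals was possible. Every bracketed interval below is an exact 95% interval for counting error alone, and reads without molecular identifiers are not independent molecules. In bulk tissue fewer cells of a type and less RNA per cell cannot be told apart. Within a tissue, ratios were taken on the deposited scale, and between tissues on CPM. A gene is counted as over 3-fold higher or lower when its ratio, with 1 added to each value, passes 3 in that direction.

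Histone messengers were most abundant at day 3 in both tissues. In adhesion tissue the 68 genes summed to 728, 2420 and 1250 CPM at days 1, 3 and 7, from 1304, 3911 and 2306 reads. In heart they summed to 393, 874 and 513 CPM at days 0, 3 and 7, from 673, 1582 and 933 reads. The day 3 sum was 3.35 times the day 1 sum in adhesion tissue (3.14 to 3.57) and 1.97 times the day 0 sum in heart (1.80 to 2.16). At day 7 the sum was 1.76 times the day 1 sum in adhesion tissue (1.64 to 1.88) and 1.20 times the day 0 sum in heart (1.09 to 1.33). The day 3 and day 7 ratios of a tissue share their first library. In CPM the heart ratios stood 0.17 (day 3) and 0.12 (day 7) higher on the log2 scale for every gene.

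Single genes moved with the sum. Reads were found in 58 of the 68 genes, 38 of them in every library, and 50 genes had at least 20 reads over the 6 libraries. Of these 58 genes, 53 had their highest CPM in adhesion tissue at day 3. Of the 49 genes with at least 20 reads in adhesion tissue, 45 were highest at day 3, as were 25.7% of all genes of that depth. Of the 30 genes with at least 20 reads in heart, 27 were highest at day 3, against 29.3% of all genes of that depth.

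**Figure D1:**
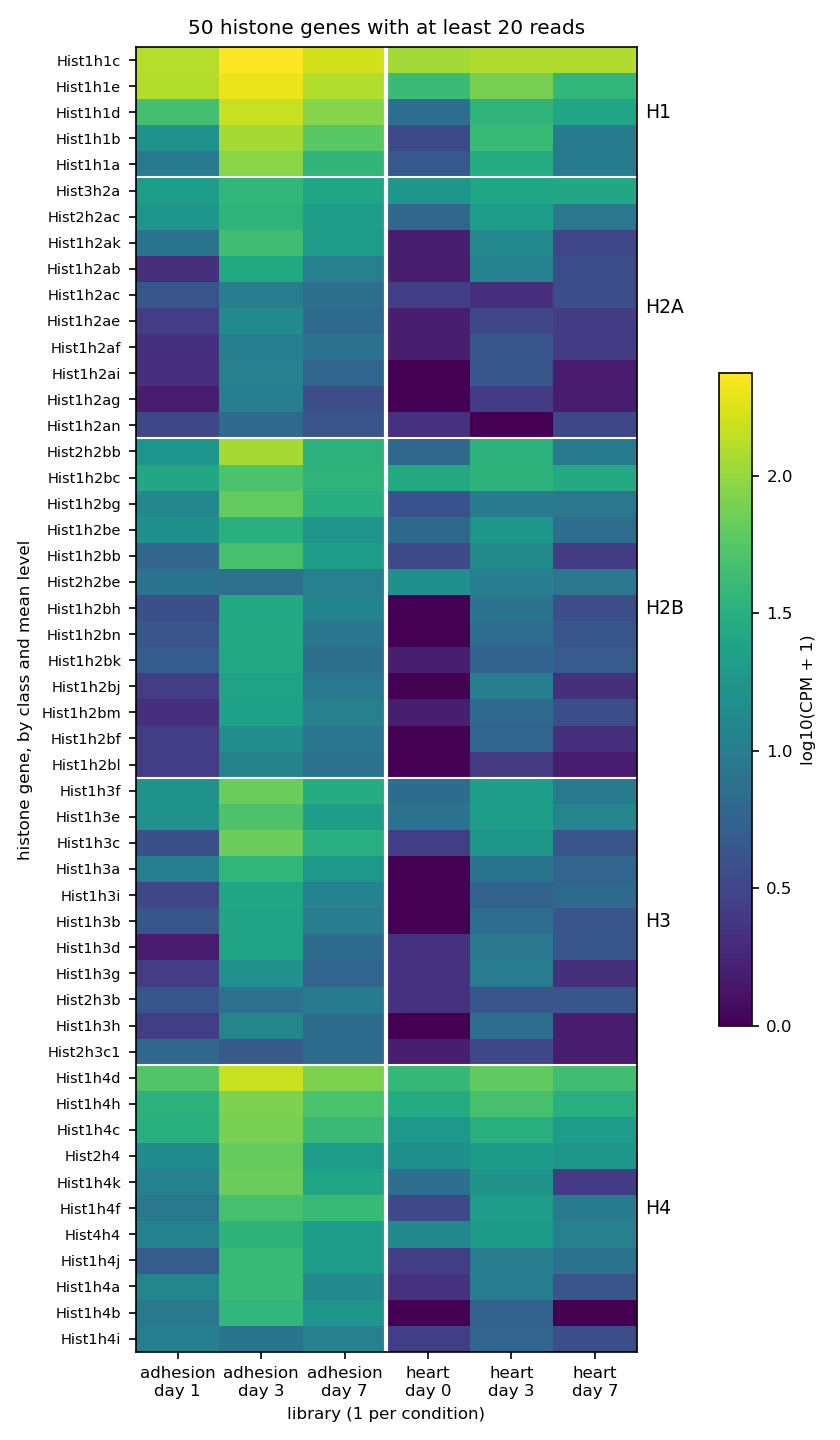
Level of the 50 histone genes with at least 20 reads in the 6 libraries, as log10(CPM + 1), with genes in rows by class and libraries in columns, adhesion tissue left of heart. The adhesion day 3 column is the brightest for most genes, and Hist1h1c and Hist1h2bc keep a similar colour across the heart columns.

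At day 3, 37 of the 58 genes detected in adhesion tissue were over 3-fold higher than at day 1 and none was over 3-fold lower, against 3.78% and 6.70% of all genes tested. Their median log2 ratio was 2.25, and that of all genes was -0.10. In heart 29 of 55 were over 3-fold higher at day 3 than at day 0, against 6.66% of all genes, and their median log2 ratio was 1.70 against -0.02. The 2 that were over 3-fold lower, Hist1h2an and Hist2h2ab, had 0 reads at day 3 and 2 reads at day 0 and are named after their values were seen; the share over all genes was 1.77%.

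The 10 genes without a read in any library fall into 2 kinds. Hist1h2aa and Hist1h2ba are testis histones, and a count of 0 allows up to 1.63 to 1.86 CPM per library. The other 8 (Hist1h2ao, Hist1h2ap, Hist1h2bq, Hist1h2br, Hist1h4m, Hist1h4n, Hist2h2aa1 and Hist2h2aa2) each share exon bases with another histone gene on the same strand. The testis linker histone Hist1h1t had 1 read at day 1 and 1 read at day 3 in adhesion tissue and none elsewhere. A further uncertainty concerns near-identical copies. In 31 of the 68 genes fewer than 50% of the 75-base windows of the row were absent from every other transcript, and the counting of reads that match several genes is not given in the sources used. The other 37 genes alone gave a day 3 ratio of 3.01 (2.80 to 3.23) in adhesion tissue and 1.80 (1.63 to 2.0) in heart.

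By class, every sum was highest at day 3 in both tissues, and H3 and H1 lay at the ends of the range of summed ratios. H3, which carries many of the marks that regulate chromatin, summed to 62.6, 326 and 147 CPM in adhesion tissue at days 1, 3 and 7 and to 19.3, 105 and 46.7 CPM in heart at days 0, 3 and 7. Its day 3 ratio was 5.25 (4.28 to 6.50) in adhesion tissue and 4.83 (3.32 to 7.21) in heart. H1 summed to 322, 783 and 465 CPM in adhesion tissue and to 163, 299 and 200 CPM in heart, with day 3 ratios of 2.45 (2.22 to 2.71) and 1.63 (1.40 to 1.88). The intervals of H3 and H1 did not overlap in either tissue. H2B had day 3 ratios of 4.75 (4.03 to 5.63) in adhesion tissue and 2.28 (1.81 to 2.89) in heart. H2A had 3.71 (2.96 to 4.69) and 2.43 (1.74 to 3.43), and H4 had 3.40 (3.01 to 3.86) and 1.72 (1.46 to 2.04). These sums weight genes by their reads. The median log2 ratio of single genes in adhesion tissue was 1.30 for H1 and 1.76 for H4. It was 2.49 for H2A, 2.47 for H2B and 2.21 for H3. In heart it was 2.16 for H1, 1.44 for H2A, 2.03 for H2B, 2.25 for H3 and 1.09 for H4. Single genes in heart thus did not show the gap between H1 and H3.

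**Figure D2:**
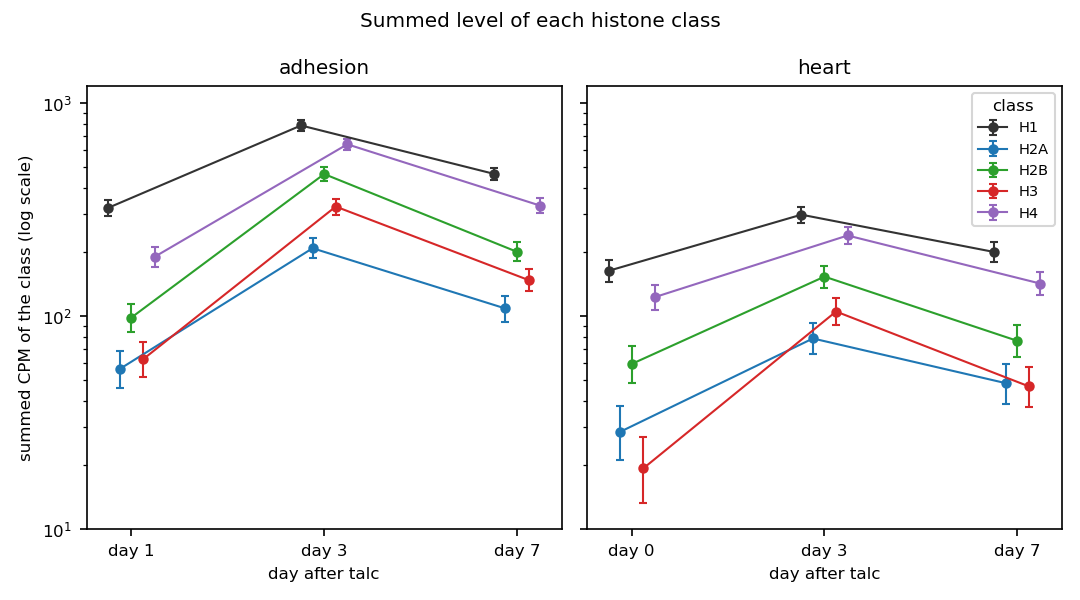
Summed CPM of the 5 histone classes (log axis) against the day after talc, in adhesion tissue (left) and heart (right), 1 library per point, with bars for the exact 95% Poisson interval of the reads. Every class peaks at day 3, with H3 steepest, at 326 CPM in adhesion tissue and 105 CPM in heart.

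The make-up of the histone reads therefore differed between days. H1 gave 44.2% of them in adhesion tissue at day 1 (41.5% to 46.9%, exact Clopper-Pearson interval, as for the shares below), 32.4% at day 3 (30.9% to 33.9%) and 37.2% at day 7 (35.2% to 39.2%). In heart H1 gave 41.5% at day 0 (37.7% to 45.3%), 34.2% at day 3 (31.9% to 36.6%) and 38.9% at day 7 (35.8% to 42.1%). The share was lowest at day 3 in both tissues, and the day 3 interval did not meet that of the first library. H3 gave 13.5% at day 3 and 8.59% at day 1 in adhesion tissue, and 12% at day 3 and 4.90% at day 0 in heart.

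The linker histones split into genes that rose by large factors and genes already abundant. Hist1h1b (RefSeq symbol H1f5) had 27, 180 and 103 reads in adhesion tissue at days 1, 3 and 7 and 4, 70 and 16 reads in heart at days 0, 3 and 7. Hist1h1a (H1f1) had 15, 144 and 64 reads in adhesion tissue and 6, 51 and 16 in heart. Hist1h1b was 7.44 times higher at day 3 in adhesion tissue (4.95 to 11.6) and 14.7 times in heart (5.48 to 55.3), and Hist1h1a 10.7 times (6.28 to 19.6) and 7.12 times (3.06 to 20.3). Both genes were among the 6 largest rises by the interval bound nearest 1 in both tissues. Hist1h1d had 81, 240 and 161 reads in adhesion tissue and 11, 62 and 43 in heart, with day 3 ratios of 3.31 (2.56 to 4.31) and 4.72 (2.47 to 9.95). In heart it was also 3.39 times higher at day 7 than at day 0 (1.72 to 7.28).

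Hist1h1c, the gene with the most reads of all 68, behaved otherwise. It had 230, 380 and 298 reads in adhesion tissue and 189, 221 and 222 reads in heart. Its day 3 ratio was 1.84 in adhesion tissue (1.56 to 2.18) and 0.980 in heart (0.803 to 1.20), so in heart no change was detectable at this depth, and the ratio was above 1 in CPM, at 1.11 (0.907 to 1.35). Hist1h1e had 222, 321 and 231 reads in adhesion tissue and 69, 137 and 66 reads in heart, with day 3 ratios of 1.61 (1.36 to 1.92) and 1.66 (1.24 to 2.26). Hist1h1e shares exon bases with Hist1h2be on the same strand, and their reads may be split by the counting.

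The H4 genes encode the same protein from several copies, and these differed widely in level and in ratio. They also differed in the share of 75-base windows absent from every other transcript. That share was 83.6% for Hist1h4d, 57.6% for Hist1h4h, 47.1% for Hist1h4c, 34.5% for Hist1h4b and 31.9% for Hist1h4k. The part of read counting in the differences between copies was not tested. Hist1h4d had 95, 239 and 147 reads in adhesion tissue and 64, 111 and 78 in heart. Per length it was the highest of the 68, with a mean of 226 CPM per kilobase of row over the 6 libraries. Its day 3 ratios were 2.81 (2.21 to 3.60) in adhesion tissue and 1.45 (1.06 to 2.01) in heart. Hist1h4h, with 58, 128 and 89 reads in adhesion tissue and 48, 85 and 54 in heart, had ratios of 2.46 (1.79 to 3.42) and 1.48 (1.03 to 2.16). Hist1h4c, with 53, 124 and 73 reads in adhesion tissue and 30, 55 and 35 in heart, had 2.61 (1.88 to 3.67) and 1.54 (0.968 to 2.48), and its heart interval held 1 on the deposited scale but not in CPM. These copies thus rose less than the sum of H3.

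Most other H4 copies named rose more in adhesion tissue. Hist1h4k had 18, 111 and 45 reads in adhesion tissue and 11, 29 and 3 in heart, and was 6.88 times higher at day 3 in adhesion tissue (4.16 to 12) and 2.21 times in heart (1.07 to 4.90). Hist1h4j had 7, 63 and 38 reads in adhesion tissue and 3, 16 and 12 in heart, with day 3 ratios of 10 (4.60 to 26.0) and 4.47 (1.28 to 23.9). Hist1h4f had 14, 76 and 71 reads in adhesion tissue and 4, 35 and 16 in heart, with day 3 ratios of 6.06 (3.40 to 11.6) and 7.33 (2.62 to 28.4). It was the H4 gene with a day 7 level closest to its day 3 level in adhesion tissue among those named, at 0.832 times (0.593 to 1.16). Hist1h4b had 14, 59 and 30 reads in adhesion tissue and 0, 8 and 0 in heart, and was at least 2.24-fold higher at day 3 than at day 0 in heart against a floor of 3 reads. Hist2h4 had 24, 104 and 36 reads in adhesion tissue, 4.84 times higher at day 3 than at day 1 (3.08 to 7.89), and 25, 34 and 31 in heart, where its day 3 ratio was 1.14 (0.660 to 1.99). Hist1h4i, named after its values were seen, was not higher at day 3 in adhesion tissue, with 17, 12 and 18 reads and a ratio of 0.788 (0.343 to 1.75).

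Among H3 genes, Hist1h3c and Hist1h3d had the largest ratios in adhesion tissue. Hist1h3c had 5, 107 and 55 reads in adhesion tissue and 3, 31 and 6 in heart, and was 23.9 times higher at day 3 in adhesion tissue (9.92 to 75.1) and 8.66 times in heart (2.70 to 44.3). Hist1h3d had 1, 38 and 11 reads in adhesion tissue and 2, 14 and 6 in heart, with ratios of 42.4 (7.17 to 1719) and 5.87 (1.35 to 53.2). The first of these rests on a single read at day 1, and 23.4% of the 75-base windows of Hist1h3d were absent from every other transcript. Hist1h3a had 17, 57 and 32 reads in adhesion tissue and 0, 13 and 9 in heart, and was at least 3.63-fold higher at day 3 than at day 0 in heart against the floor. Of the 12 H3 genes, 9 passed 3-fold in adhesion tissue and 7 in heart at day 3, against 3.78% and 6.66% of all genes.

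Among H2B genes, Hist2h2bb led by reads. It had 30, 182 and 60 reads in adhesion tissue and 9, 59 and 15 in heart, with day 3 ratios of 6.77 (4.58 to 10.3) and 5.50 (2.71 to 12.6). Hist1h2bb had 9, 76 and 38 reads in adhesion tissue and 4, 22 and 3 in heart, with ratios of 9.43 (4.71 to 21.4) and 4.61 (1.57 to 18.4). Hist1h2bm had 2, 35 and 18 reads in adhesion tissue and 1, 10 and 5 in heart, with ratios of 19.5 (5.02 to 168) and 8.38 (1.19 to 364). The octamer stretches of these 3 genes are printed above, as are those of the next 2. Hist1h2bg had 21, 102 and 54 reads in adhesion tissue and 5, 15 and 14 in heart, with a day 3 ratio of 5.42 in adhesion tissue (3.37 to 9.13). Hist1h2bk had 7, 42 and 12 reads in adhesion tissue and 1, 8 and 7 in heart, with a day 3 ratio of 6.70 in adhesion tissue (2.98 to 17.7). In heart the ratios of Hist1h2bg and Hist1h2bk had intervals that held 1. Only 5.21% of the 75-base windows of Hist1h2bk were absent from every other transcript.

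Some H2B genes stood apart. No promoter was matched for Hist1h2bc or Hist2h2be, so the octamer was not looked for in either. Hist1h2bc had 46, 81 and 62 reads in adhesion tissue and 46, 60 and 50 in heart, with day 3 ratios of 1.97 (1.35 to 2.89) and 1.09 (0.732 to 1.64). Hist2h2be had 13, 11 and 18 reads in adhesion tissue and 25, 17 and 14 in heart, with a day 3 ratio of 0.945 in adhesion tissue (0.383 to 2.28). In heart at day 7 it was 0.485 times its day 0 level (0.233 to 0.970), a fall whose interval held 1 in CPM. It was 1 of 2 genes whose highest CPM was not in adhesion tissue. The other, Hist2h3c2, is named after its values were seen and had 2, 0 and 1 reads in adhesion tissue and 1, 3 and 2 in heart.

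The H2A genes summed to fewer reads than any other class in adhesion tissue. In heart not every H2A gene was highest at day 3, as the reads of Hist3h2a given below with its cluster show. The same held for the H1 gene Hist1h1c and the H2B gene Hist2h2be. Hist1h2ak had 13, 70 and 36 reads in adhesion tissue and 1, 22 and 4 in heart, with day 3 ratios of 6.01 (3.30 to 11.8) and 18.4 (2.98 to 761). Hist1h2ab had 2, 43 and 18 reads in adhesion tissue and 1, 18 and 5 in heart, with ratios of 24 (6.25 to 205) and 15.1 (2.38 to 629). Both heart ratios rest on 1 read at day 0. Of 13 H2A genes with a read, 8 passed 3-fold at day 3 in adhesion tissue, against 3.78% of all genes. In heart 6 of 12 did, against 6.66%. No promoter was matched for Hist1h2ap, Hist1h2bc, Hist2h2be and Hist3h2bb-ps, which are left out of the next comparison. The 14 H2A and H2B genes that hold the octamer were 4.48 times higher at day 3 in adhesion tissue (3.78 to 5.32), and the 19 without it 7.42 times (5.41 to 10.4). In adhesion tissue this gap held for summed reads alone, since the median log2 ratio of single genes was 2.57 with the octamer and 2.50 without it. In heart the sums were 2.91 times higher with it (2.23 to 3.84) and 10.9 times without it (5.08 to 27.9). The second of these rests on 7 reads at day 0. The heart medians also differed, at 1.57 with the octamer and 2.43 without it.

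**Figure D3:**
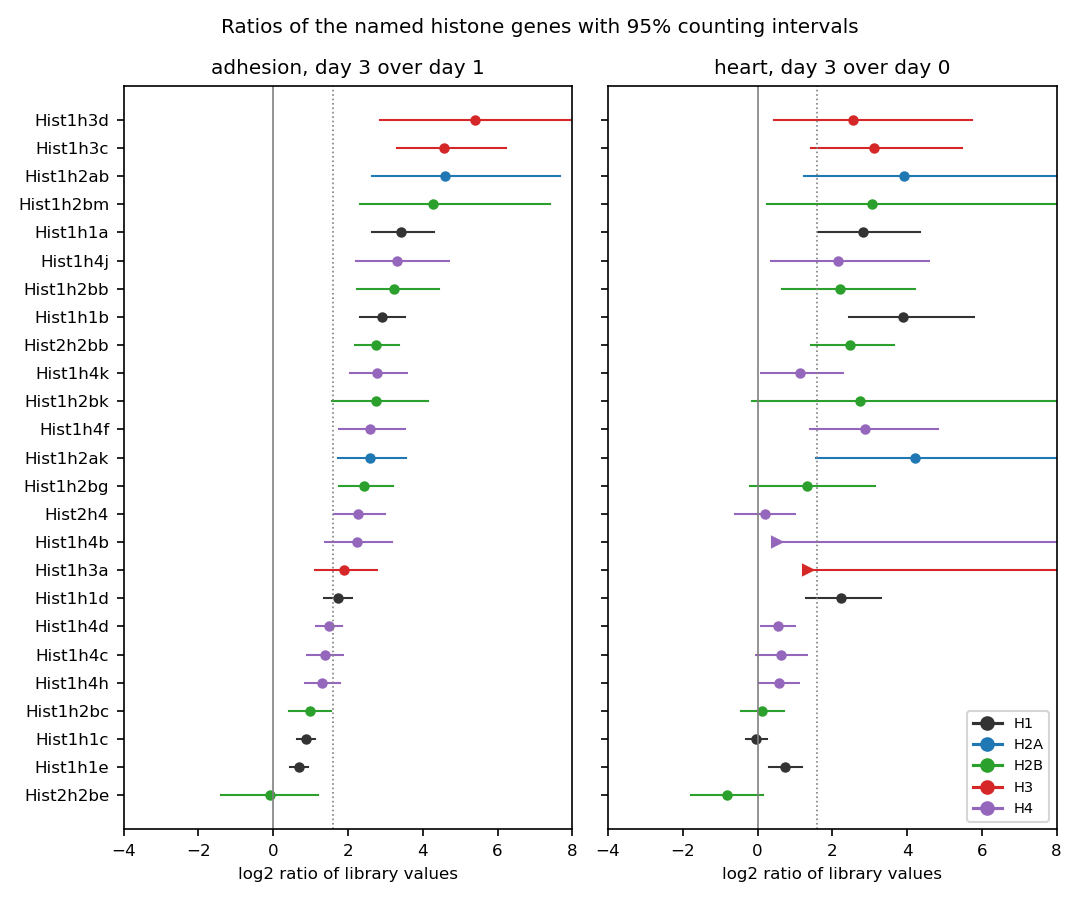
Log2 ratios of the 25 named histone genes at day 3 over the first library of each tissue, adhesion tissue left and heart right, with exact 95% counting intervals; colours are classes, the dotted line is 3-fold, intervals run on past the right edge where they reach it, and a triangle marks the lower bound where the first library had 0 reads. Hist1h3d, Hist1h2ab and Hist1h3c have the 3 largest ratios of the adhesion panel, at 42.4, 24 and 23.9 times, and Hist1h1c and Hist1h1e lie below a log2 ratio of 1 in both panels.

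The chromosomal clusters differed in their sums. The 54 Hist1 genes lie in 2 blocks of chromosome 13. The first block, chr13:21715763-22043610, holds 23 genes, and the second, chr13:23531044-23934851, holds 31. The first block summed to 65.4, 445 and 198 CPM in adhesion tissue and to 15.2, 124 and 44.0 CPM in heart. The second block summed to 566, 1671 and 907 CPM in adhesion tissue and to 305, 618 and 386 CPM in heart. At day 3 the first block was 6.86 times higher in adhesion tissue (5.64 to 8.41) and 7.22 times in heart (4.80 to 11.3), and the second 2.97 times (2.76 to 3.20) and 1.80 times (1.62 to 2.0). With rows under 1000 bases alone the first block kept its ratios, and the second had 4.21 (3.77 to 4.69) in adhesion tissue and 2.28 (1.96 to 2.67) in heart. The intervals of the block sums did not overlap in either tissue or on either set. The sums weight genes by their reads, and the second block holds the abundant Hist1h1c, Hist1h4d, Hist1h4h, Hist1h4c and Hist1h2bc. The median log2 ratio of single genes in rows under 1000 bases was 2.71 in the first block and 2.51 in the second in adhesion tissue, and 2.20 and 2.34 in heart, so single genes did not show the gap of the sums.

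The smaller clusters lie on other chromosomes. The 10 Hist2 genes, chr3:96219916-96270192, had day 3 ratios of 3.59 (2.91 to 4.46) in adhesion tissue and 1.81 (1.37 to 2.42) in heart. The 3 Hist3 genes, chr11:58948911-58956674, summed to 21.2, 40.2 and 24.9 CPM in adhesion tissue and to 18.1, 24.9 and 26.9 CPM in heart. Their day 3 ratio was 1.91 (1.26 to 2.93) in adhesion tissue and 1.22 (0.753 to 1.99) in heart. Most of these reads came from Hist3h2a, with 36, 59 and 45 reads in adhesion tissue and 29, 43 and 46 in heart. Hist4h4, chr6:136801553-136804431, had 19, 54 and 38 reads in adhesion tissue and 20, 34 and 18 in heart, with day 3 ratios of 3.17 (1.85 to 5.67) and 1.42 (0.797 to 2.61).

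The deposited rows also differ in where they end. Of the 46 genes with a hairpin, the row ran 840 to 2445 bases past it in 8 genes, namely Hist1h1c, Hist1h1d, Hist1h1e, Hist1h2ac, Hist1h2be, Hist2h3c1, Hist3h2a and Hist4h4. In 16 genes the row ended 0 to 377 bases past it. In 18 a row of 1 exon stopped before the hairpin, 17 to 52 bases short of the last of its 16 bases. In the remaining 4 the row has several exons. The 8 long rows summed to 351, 696 and 448 CPM in adhesion tissue and to 193, 295 and 227 CPM in heart. Their day 3 ratio was 2.0 (1.81 to 2.20) in adhesion tissue and 1.35 (1.18 to 1.56) in heart. The other 38 genes with a hairpin had 4.23 (3.83 to 4.69) and 2.48 (2.14 to 2.89), and these intervals did not overlap those of the 8. The 22 genes without a hairpin match had 5.53 (4.74 to 6.48) and 2.75 (2.22 to 3.44). All 8 long rows have at least 1000 bases. Rows of at least 1000 bases had 2.07 (1.88 to 2.27) and 1.35 (1.18 to 1.54), and shorter rows 4.71 (4.32 to 5.15) and 2.71 (2.39 to 3.10). The place of the row end and the row length were not separated. Reads beyond the hairpin cannot be separated from reads before it in values summed over a row.

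In heart at day 0 the histone reads came from few genes. The 10 genes with at least 20 reads there were Hist1h1c, Hist1h1e, Hist1h2bc, Hist1h4c, Hist1h4d, Hist1h4h, Hist2h2be, Hist2h4, Hist3h2a and Hist4h4, and they held 81.0% of its histone reads. Since that library chose them, only the other libraries are compared. They held 61.0% in adhesion tissue at day 1 (58.3% to 63.7%), 38.4% at day 3 (36.9% to 39.9%) and 45.0% at day 7 (42.9% to 47.0%), and in heart 50.4% at day 3 (47.9% to 52.9%) and 65.8% at day 7 (62.7% to 68.9%). In adhesion tissue, whose libraries played no part in the choice, these 10 were 2.10 times higher at day 3 than at day 1 (1.93 to 2.30) and the other 58 genes 5.30 times (4.81 to 5.84).

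**Figure D4:**
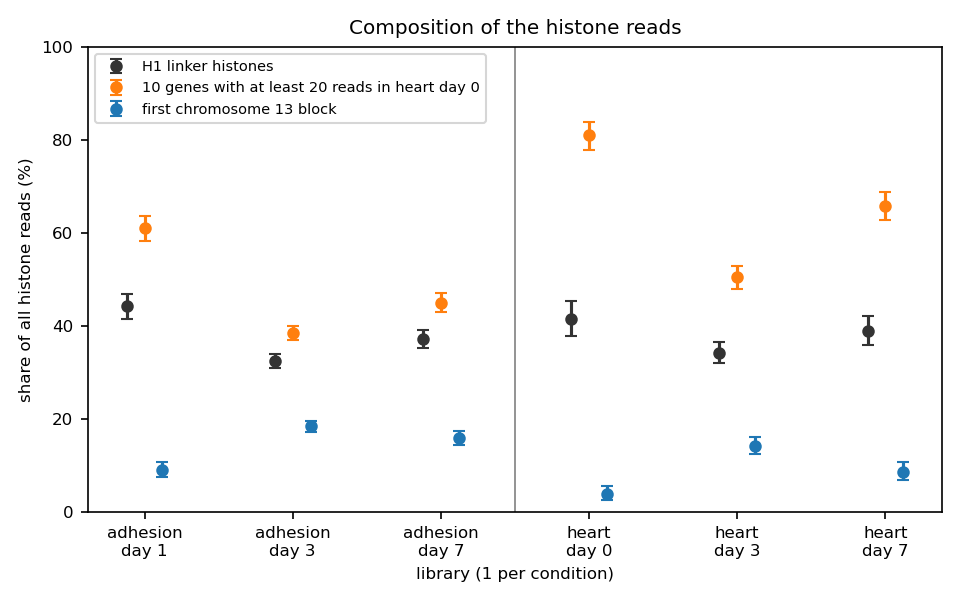
Share of all histone reads (%) in each of the 6 libraries for the 6 H1 genes, the 10 genes with at least 20 reads in heart at day 0 and the 23 genes of the first chromosome 13 block, with exact 95% intervals. In adhesion tissue the 10 genes hold 61.0%, 38.4% and 45.0% at days 1, 3 and 7, and the first block 8.97%, 18.4% and 15.9%.

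At day 7 the level was lower than at day 3 in both tissues and above that of the first library. The day 7 sum was 0.525 times the day 3 sum in adhesion tissue (0.498 to 0.553) and 0.610 times in heart (0.562 to 0.661). In adhesion tissue 53 of 58 genes had a log2 ratio below 0, as did 48.4% of all genes, and 5 were over 3-fold lower, against 1.82% of all genes, with none over 3-fold higher, against 4.88%. In heart 45 of 56 had a ratio below 0, as did 46.8% of all genes, and 13 were over 3-fold lower, against 2.37%, and 1 over 3-fold higher, against 2.93%. That gene, Hist1h2an, had 4 reads at day 7 and 0 at day 3 and is named after its values were seen. Ranked by the interval bound nearest 1, among genes with at least 20 reads at day 3, the largest falls in adhesion tissue were Hist1h2bk at 0.254 times (0.122 to 0.492), Hist2h2bb at 0.294 times (0.215 to 0.395) and Hist2h4 at 0.308 times (0.205 to 0.454). Hist1h3d and Hist1h2bn made up the 5, and Hist1h2bn is named after its values were seen. In heart they were Hist1h4k at 0.107 times (0.0208 to 0.345), Hist1h1b at 0.236 times (0.128 to 0.411) and Hist1h2bb at 0.141 times (0.0270 to 0.469).

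Against the first library, day 7 kept a smaller rise. In adhesion tissue 17 of 57 genes were over 3-fold higher at day 7 than at day 1, against 5.13% of all genes, and none was over 3-fold lower, against 4.88%. Ranked by the interval bound nearest 1, among genes with at least 20 reads at day 7, the first included Hist1h3c at 10.9 times (4.41 to 35.0), Hist1h4f at 5.04 times (2.82 to 9.68), Hist1h1a at 4.24 times (2.39 to 8.01), Hist1h1b at 3.79 times (2.46 to 6.03) and Hist1h4j at 5.40 times (2.38 to 14.3). In heart 11 of 55 were over 3-fold higher at day 7 than at day 0, against 6.84%, and 1 over 3-fold lower, against 1.52%. The first count rests on genes with few reads: 4 remained among genes with at least 10 reads over both libraries, and 7 genes had an interval above 1. A binomial test of the reads of the 2 libraries, adjusted over all genes, called 2 of the 55 higher (3.64%), no more than the 4.89% of all genes. The gene that was lower was Hist1h4k, at 0.236 times (0.0423 to 0.895).

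Adhesion tissue held more histone reads than heart on both shared days. In CPM the sum was 2.77 times higher in adhesion tissue at day 3 (2.61 to 2.94) and 2.44 times at day 7 (2.26 to 2.63). At day 3, 28 of 58 genes were over 3-fold higher in adhesion tissue and none lower, against 10.2% and 9.30% of all genes. At day 7, 23 of 57 were over 3-fold higher and none lower, against 9.33% and 6.86%. The classes were close to one another, from 2.62 for H1 (2.37 to 2.91) to 3.11 for H3 (2.63 to 3.69) at day 3.

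Single genes differed more between the tissues. Hist1h2bg was 7.62 times higher in adhesion tissue at day 3 (4.41 to 14.1), Hist1h4b 8.26 times (3.93 to 20) and Hist1h1d 4.34 times (3.27 to 5.83). At day 7 the first by the interval bound nearest 1 included Hist1h4k at 14.8 times (4.75 to 74.4), Hist1h2bb at 12.5 times (3.96 to 63.2), Hist1h3c at 9.04 times (3.90 to 25.7) and Hist1h2ak at 8.87 times (3.18 to 34.3). Hist1h4b had 30 reads in adhesion tissue and 0 in heart at day 7, at least 9.86-fold higher against the floor. The 3 Hist3 genes summed to 0.925 times the heart level in adhesion tissue at day 7 (0.605 to 1.41).

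Genes that act with the histones were read in the same libraries. The 11 replacement histones summed to 886, 1032 and 880 CPM in adhesion tissue and to 394, 601 and 485 CPM in heart, with day 3 ratios of 1.17 (1.09 to 1.26) and 1.35 (1.23 to 1.49). H3f3b, with 386, 363 and 262 CPM in adhesion tissue, had a day 3 ratio of 0.948 there (0.848 to 1.06), and H3f3a, with 252, 243 and 246 CPM, had 0.970 (0.845 to 1.11). H2afy, which encodes macroH2A, had 97.8, 97.2 and 87.8 CPM in adhesion tissue. H2afz, which encodes the variant H2A.Z, had 44.1, 131 and 112 CPM in adhesion tissue and 30.9, 44.2 and 34.6 CPM in heart, with day 3 ratios of 3.0 (2.30 to 3.93) and 1.27 (0.883 to 1.83). Of lower genes named after their values were seen, H2afx, the H2A variant that is phosphorylated at DNA breaks, had 18.4, 60.6 and 35.2 CPM in adhesion tissue and 4.67, 23.2 and 11.5 CPM in heart, with day 3 ratios of 3.31 (2.21 to 5.08) and 4.40 (2.04 to 10.9). Of the 11 genes, 2 passed 3-fold at day 3 in each tissue, against 3.78% of all genes in adhesion tissue and 6.66% in heart. They were H2afx and the centromere histone Cenpa in adhesion tissue and H2afx and H1fx in heart, Cenpa and H1fx being named after their values were seen. The day 3 ratio of the replacement sum was below that of the 68 genes in both tissues, while its level was above theirs in adhesion tissue at day 1.

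The genes that process histone messengers had sums close to level at day 3 and lower at day 7. The 16 processing genes summed to 887, 774 and 661 CPM in adhesion tissue and to 569, 608 and 542 CPM in heart, with day 3 ratios of 0.880 (0.816 to 0.948) and 0.948 (0.868 to 1.03), and none passed 3-fold in either direction. The heart ratio was above 1 in CPM, at 1.07 (0.980 to 1.17). At day 7, on the deposited scale, the sum was 0.763 times that of day 1 in adhesion tissue (0.708 to 0.823). In heart it was 0.877 times that of day 0 (0.802 to 0.959). Slbp, chosen for its role and not its reads like Chaf1a below, had 25.1, 30.9 and 15.7 CPM in adhesion tissue and 5.25, 10.5 and 7.15 CPM in heart. Its day 3 ratios were 1.24 (0.812 to 1.90) and 1.77 (0.763 to 4.44). Among the 8 histone chaperone and acetylation genes, the sum had a day 3 ratio of 1.12 (0.984 to 1.27) in adhesion tissue. At day 3, 3 passed 3-fold in each tissue, against 3.78% of all genes in adhesion tissue and 6.66% in heart. The large subunit of the chromatin assembly factor that loads new histones behind the fork, Chaf1a, had 9.50, 30.9 and 22.8 CPM in adhesion tissue and 2.34, 11.6 and 5.50 CPM in heart.

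Other RNAs without poly(A) were read in the same libraries. Of 11 listed, 5 were found. These, mainly the RNase P and RNase MRP RNAs Rpph1 and Rmrp, summed to 5224, 7007 and 6817 CPM in adhesion tissue and to 4470, 4591 and 4298 CPM in heart. Their day 3 ratio was 1.35 (1.31 to 1.39) in adhesion tissue and 0.910 (0.882 to 0.939) in heart (1.03 in CPM, 0.995 to 1.06). In adhesion tissue their sum was 1.53 times that of heart at day 3 (1.48 to 1.57) and 1.59 times at day 7 (1.54 to 1.63). The part of the preparation in the histone values was not tested.

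Genes of S phase and mitosis were also highest at day 3. The 7 replication genes Pcna and Mcm2 to Mcm7 summed to 256, 482 and 295 CPM in adhesion tissue and to 73.6, 170 and 133 CPM in heart, with day 3 ratios of 1.90 (1.69 to 2.14) and 2.05 (1.66 to 2.54). The 12 mitosis genes, led by Mki67 and Top2a, had ratios of 7.81 (6.72 to 9.13) and 19.2 (12.3 to 31.8). In adhesion tissue the histone sum thus lay above the replication genes and below the mitosis genes, and in heart its interval overlapped that of the replication genes. The 11 S phase entry genes had 2.06 (1.80 to 2.36) and 2.28 (1.87 to 2.80).

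**Figure D5:**
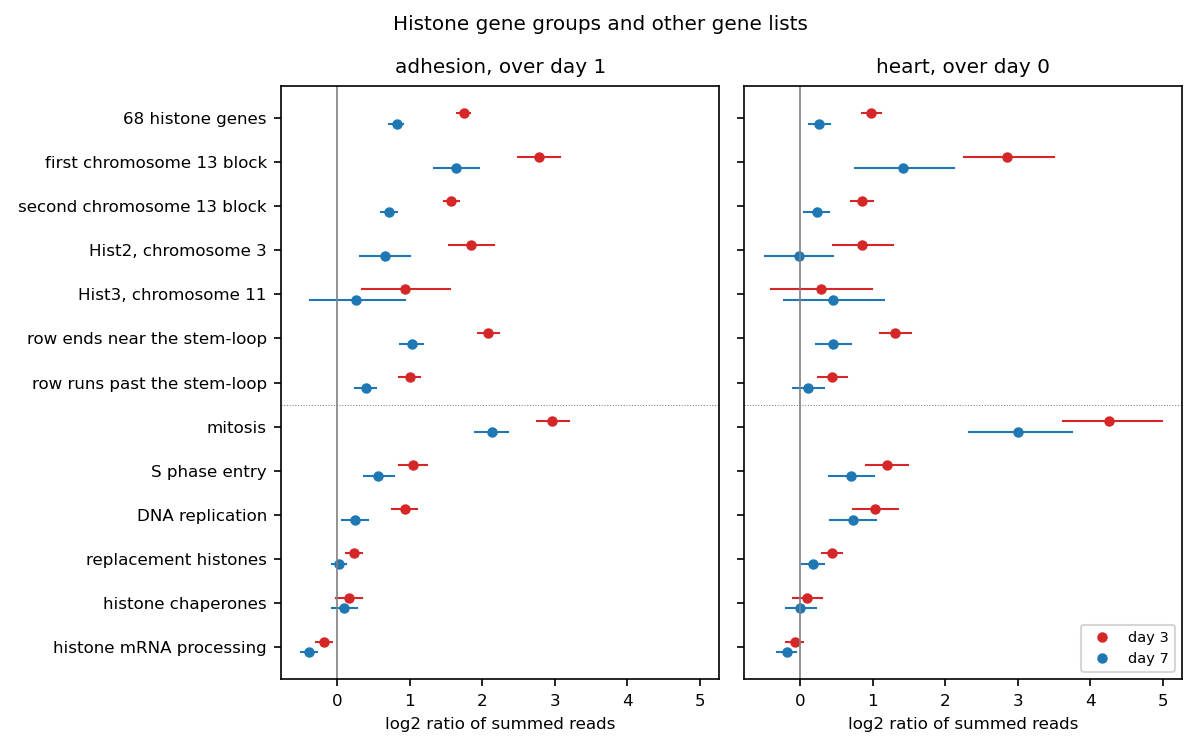
Log2 ratio of summed reads at day 3 (red) and day 7 (blue) over day 1 in adhesion tissue (left) and day 0 in heart (right), for groups of histone genes above the dotted line and other lists below it, with exact 95% counting intervals. The first chromosome 13 block (6.86 times in adhesion tissue at day 3) and the mitosis genes (7.81 times) lie farthest to the right. The processing genes lie near 0, with the lowest value, -0.39, in adhesion tissue at day 7.

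The libraries also differed in the markers of the cells they held. In adhesion tissue the library with the most histone reads, day 3, had the fewest muscle reads: the 6 cardiomyocyte markers summed to 4800, 199 and 3103 CPM at days 1, 3 and 7 and the 6 skeletal muscle markers to 6194, 11.1 and 2071 CPM, with Myh1 at 0 in 1 library. The 5 macrophage markers summed to 1634, 5290 and 5725 CPM and the 6 fibroblast markers to 2381, 28399 and 44568 CPM. The fibroblast sum is mostly collagen: Col1a1, Col1a2 and Col3a1 were 25.9, 23.3 and 8.80 times higher at day 3 than at day 1. Dcn was 1.08 times higher (0.957 to 1.21). Lum and Pdgfra, named after their values were seen, were 2.47 times (1.70 to 3.65) and 1.66 times (1.46 to 1.90). The 5 neutrophil markers summed to 2351, 694 and 606 CPM. In heart the macrophage markers summed to 255, 978 and 1211 CPM and the fibroblast markers to 1458, 11515 and 12159 CPM. In adhesion tissue the macrophage sum at day 7 was 1.10 times that at day 3 (1.07 to 1.13), but this sum is mostly Lyz2, and 3 of its 5 genes were lower at day 7: Mrc1 at 0.534 times (0.486 to 0.587), Csf1r at 0.786 times (0.728 to 0.848) and Fcgr1, named after its values were seen, at 0.695 times (0.502 to 0.958). The fibroblast sum was 1.59 times that at day 3 (1.58 to 1.61). The 6 thymocyte markers, from cells that divide in the thymus, were all read in every adhesion library and summed to 240, 29.7 and 22.8 CPM there and to 2.34, 5.52 and 22.0 CPM in heart, where Cd3e, Dntt and Rag1 were at 0 in at least 1 library. The 6 lung epithelium markers summed to 260, 11.8 and 642 CPM in adhesion tissue and to 4.67, 4.42 and 221 CPM in heart. At day 1 in adhesion tissue Scgb1a1 gave 445 of their 465 reads, and Sftpc had 1 read. The part of these cells in the histone values was not tested.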

How the data were processed

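The authors deposited 1 table per tissue with 23420 rows and 3 libraries. Per the labels, TopHat, Cufflinks, edgeR and mm10 were used. Their versions, and the counting tool, annotation, strand setting and treatment of reads with several matches, are not given in the sources used. The signal the authors deposited is a read count times 1 factor per library: divided by its lowest step, every library's values came out whole (100%, tolerance 0.1), which returned the reads. The tables also hold the authors' own comparisons over the libraries of a tissue (a statistic, a rank and a false discovery rate per gene), which were not used, and 0 columns of samples outside the series.

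The histone genes, the lists of other genes and the comparisons were chosen with earlier results of these data known. Ratios of reads in 8 comparisons were taken without a pseudocount, with exact conditional binomial intervals (Python 3.11.15, SciPy 1.17.1), and a 3-fold count with a pseudocount of 1 over all genes with a read in either library. Named were the 10 histone genes with the highest mean CPM, the 6 largest rises and 3 largest falls of each comparison by the interval bound nearest 1 (at least 20 reads in the higher library), linker histones with at least 20 reads, and up to 4 genes of each list by reads. The fold and interval steps were tested on simulated data. Alternatives were pseudocounts of 0.5 and 5, a filter of 10 reads, CPM or totals without Rn45s, edgeR 4.0.16 TMM factors, DESeq2 1.42.0 size factors, a 2-fold threshold, and the counting interval. Row sequence came from GENCODE M21 transcripts and promoters from RefSeq.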

Additional observations from a re-analysis of the deposited data

How the results depend on the processing

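No ratio of the 68-gene sum changed direction. Of the 597 log2 ratios of the 25 named genes under other scalings, none whose counting interval excluded 1 changed direction, and 584 kept their side of the counting interval, 8 lost it and 5 gained it. Over CPM, TMM, DESeq2 factors and totals without Rn45s, 11 of 776 ratios of named genes and 9 of 928 ratios of histone groups crossed 1, all with intervals that held 1. Of 516 ratios of other lists 17 did, 6 of them with intervals that had excluded 1, for the other RNAs without poly(A) (heart day 3 over day 0) and the chaperones (adhesion over heart). Each comparison is given by its tissue and days. With a pseudocount of 0.5 the counts over 3-fold became 20 (heart day 7 over day 0) and 11 (adhesion day 7 under day 3). With a pseudocount of 5 they became 14 and 1 (heart days 3 and 7 over day 0), 7 (heart day 7 under day 3), 7 (adhesion day 7 over day 1), 1 (adhesion day 7 under day 3), and 12 and 9 (adhesion over heart, days 3 and 7). A filter of 10 reads, CPM and TMM gave 4, 7 and 6 for heart day 7 over day 0, and TMM gave 15 for adhesion over heart at day 7. A 2-fold threshold gave 26 (heart day 7 over day 0), 22 (heart day 7 under day 3), 28 (adhesion day 7 over day 1), 29 (adhesion day 7 under day 3) and 37 (adhesion over heart, day 7). Counting intervals excluding 1 gave 7, 20, 28 and 37 in the first 4 of these comparisons, and 45 and 36 for adhesion over heart at days 3 and 7. Shares over all genes are not given at these other settings. These counts therefore show only how the number of histone genes moved, and not how they stood against all genes.

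Summed ratios became 2.22 in CPM (heart day 3 over day 0), 3.0 without Rn45s (adhesion over heart, day 3), and 2.31 and 2.0 with TMM and 2.37 and 2.02 with DESeq2 factors (adhesion over heart, days 3 and 7). Without the gene with the most reads they became 2.36 and 0.540 (heart day 3 over day 0 and day 7 under day 3), 3.67 (adhesion day 3 over day 1) and 2.78 (adhesion over heart, day 7).

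After the data were seen, the genes with at least 50% of 75-base windows found in no other transcript were taken alone, in place of windows over the genome, which was not run because no genome sequence was used here. The counts over 3-fold, of 29 genes with a read, were 11, 4 and 5 (heart day 3 over 0, 7 over 0, 7 under 3), against 6.66%, 6.84% and 2.37% of all genes. Of 30 genes they were 15, 6 and 2 (adhesion day 3 over 1, 7 over 1, 7 under 3), against 3.78%, 5.13% and 1.82%. For adhesion over heart they were 14 of 30 at day 3 and 13 of 29 at day 7, against 10.2% and 9.33%. The adhesion sums were 3.01 at day 3 over day 1 and 0.554 at day 7 over day 3. A test added then, exact and binomial on the reads and adjusted by Benjamini-Hochberg at 0.05, compares 2 libraries and not the conditions. It called 836 of 16145 genes higher in heart at day 3 and 1578 of 16946 in adhesion tissue at day 3, with 22 and 45 histone genes, and 2 (heart day 7 over day 0) and 30 (adhesion day 7 under day 3) in the comparisons where the count moved most, against 4.89% and 4.81% of all genes. Depth limits most H2A, H2B and H3 genes, whose first libraries held under 10 reads in both tissues. In heart the same limit holds for some H1 and H4 genes. No paired analysis was possible because each condition has 1 library.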

Other observations

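Among rows of 1 exon, 10 histone pairs lie head to head within 1000 bases, and 9 of them join an H2A and an H2B gene. These include the pseudogene Hist3h2bb-ps with Hist3h2a, and the testis genes Hist1h2ba and Hist1h2aa, which had no read. The pair with the most unlike patterns, chosen after the values were seen, was Hist2h2ac and Hist2h2be, whose rows begin 277 bases apart on chromosome 3. Hist2h2ac had 30, 55 and 38 reads in adhesion tissue at days 1, 3 and 7 and 9, 37 and 14 reads in heart at days 0, 3 and 7. Hist2h2be had 13, 11 and 18 reads in adhesion tissue and 25, 17 and 14 in heart. In the pair of Hist1h2ak and Hist1h2bn, 296 bases apart on chromosome 13, both genes were highest at day 3, with 13, 70 and 36 against 6, 44 and 14 reads in adhesion tissue.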
